A study of Mus musculus with 6 samples.

Results

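The lysyl oxidases Lox, Loxl1, Loxl2 and Loxl3, the lysyl hydroxylases Plod1, Plod2 and Plod3, the prolyl 4-hydroxylase beta subunit P4hb and the collagen chaperone Serpinh1 were followed in cultured aortic smooth muscle cells with and without FHL2. The 9 genes were chosen by name, and every probe that the platform annotation assigns to one of them was read. This gave 13 of the 45281 probes on the array, for 8 of the 9 genes. Loxl2 had no probe under its symbol and was not analysed here. Of the 13 probes, 9 passed the filter on dim signal (detection p under 0.05 on at least 3 of the 6 arrays), as did 15527 of all probes. They stood for 7 genes, and each of them was detected on all 6 arrays, so that none was kept through 1 genotype alone.

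Both groups were smooth muscle cells from the aorta of C57Bl/6 mice, one wild-type and the other lacking FHL2, a LIM-only adaptor protein. A culture batch held the pooled cells of 3 aortas, and 3 batches from 9 mice were made per genotype. Every batch was grown to confluency, kept for 48 h without serum and measured on 1 array. The age and sex of the mice, the deleted part of Fhl2 and the tissue in which it was deleted are not given in the sources used here.

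Collagen chains are modified in the endoplasmic reticulum before they leave the cell. Prolyl 4-hydroxylase makes the triple helix stable at body temperature, lysyl hydroxylases prepare the lysines that later form crosslinks or carry sugars, and the chaperone HSP47, the product of Serpinh1, binds the folded helix until it reaches the Golgi. Outside the cell, lysyl oxidases, which need copper, oxidize lysines of collagen and elastin to the aldehydes from which crosslinks form. In the wall of the aorta these crosslinks give elastic lamellae and collagen fibres their strength, and loss of Lox in mice leads to aortic aneurysm.

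Serpinh1 and P4hb were higher in knockout cells and Plod2 was lower, by factors between 1.43 and 2.05, whereas Lox, Loxl1, Plod1 and Plod3 did not pass. Counted by the brightest kept probe of each gene, 2 of the 7 genes were higher and 1 was lower (limma, adjusted p under 0.05 over all kept probes). Among the 9051 genes with a kept probe, 14.8% were higher and 16.5% lower. Counted by probe, 3 of the 9 kept probes were higher and 2 lower, against 14.4% and 15.2% of all kept probes. The median change of the 7 genes was 0.07 on the log2 scale and that of all genes -0.0064. The median size of change depended on how probes were counted. It was 0.14 over the 7 genes against 0.30 for all genes, with a largest size of 0.62, and 0.52 over the 9 probes against 0.29 for all kept probes, with a largest size of 1.04. With a fold of at least 1.5 also required, 1 of the 7 genes was higher (Serpinh1) and 0 were lower, against 10.6% and 12.3% of all genes.

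Across the 6 arrays the median raw intensity ran from 116 in wild-type replicate 2, the dimmest array, to 172, with 14844 to 16115 detected probes. Normalized arrays correlated at 0.985 to 0.988 within a genotype and at 0.934 to 0.939 between genotypes. Fhl2 went with the labels, with 11.23, 11.37 and 11.51 on the log2 scale in wild-type replicates 1, 2 and 3 and 6.70, 6.65 and 7.04 in the knockout replicates by its brighter probe (limma adjusted p = 9.66e-07). Xist, the RNA that coats the inactive X chromosome in females, was looked up because earlier results of these data were known. Each of its 4 kept probes was detected in all 3 wild-type cultures and in no knockout culture. Of the smooth muscle markers, Acta2, Tagln, Lmod1, Smtn and Cald1 were detected on all arrays. Myh11 was detected on 1 wild-type and 2 knockout arrays without being called, Cnn1 on none and Myocd on no wild-type array. The summed normalized intensity of these markers (6 kept of 8) was 23209 to 29517 in wild-type and 35618 to 39780 in knockout cells, with 2 genes higher and 0 lower. Acta2, by far the brightest of them, averaged 14.61 in wild-type and 15.12 in knockout cells on the log2 scale and dominates this sum. Marker sets of other cells differed between the genotypes too. The endothelial sum (7 kept of 8 genes) was 1641 to 2162 against 211 to 234, and that of adventitial fibroblasts (5 kept of 7) 5842 to 6357 against 1267 to 1347. In knockout cells Cdh5, Egfl7, Emcn, Esam, Icam2, Pecam1, Tek and Clec3b were detected on no array, and Dpp4 was detected nowhere. Single markers did not follow these sums, as the fibroblast marker Pi16 was 4.15-fold higher in knockout cells (limma adjusted p = 9.91e-05), Dpt was not called, and the endothelial receptor gene Kdr was detected on 1 wild-type and all 3 knockout arrays without being called. The chondrocyte sum (4 kept of 5) was 31060 to 33203 against 10457 to 11768 and that of macrophages and leukocytes (2 kept of 5) 374 to 459 against 101 to 123. Matn3, Ptprc and Adgre1 were detected in neither genotype. The epithelial and mesothelial sum (4 kept of 8) went the other way, from 130 to 152 in wild-type to 2600 to 2794 in knockout cells, with Msln, Upk1b, Krt8 and Krt19 detected on no wild-type array and Krt18 on no knockout array. Detection of Xist followed genotype on every array, so whatever it marks cannot be told apart from the knockout in these data. The part of these cell types in the results was not tested, and in such bulk RNA fewer cells of a type and less RNA per cell cannot be told apart.

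**Figure D1:**
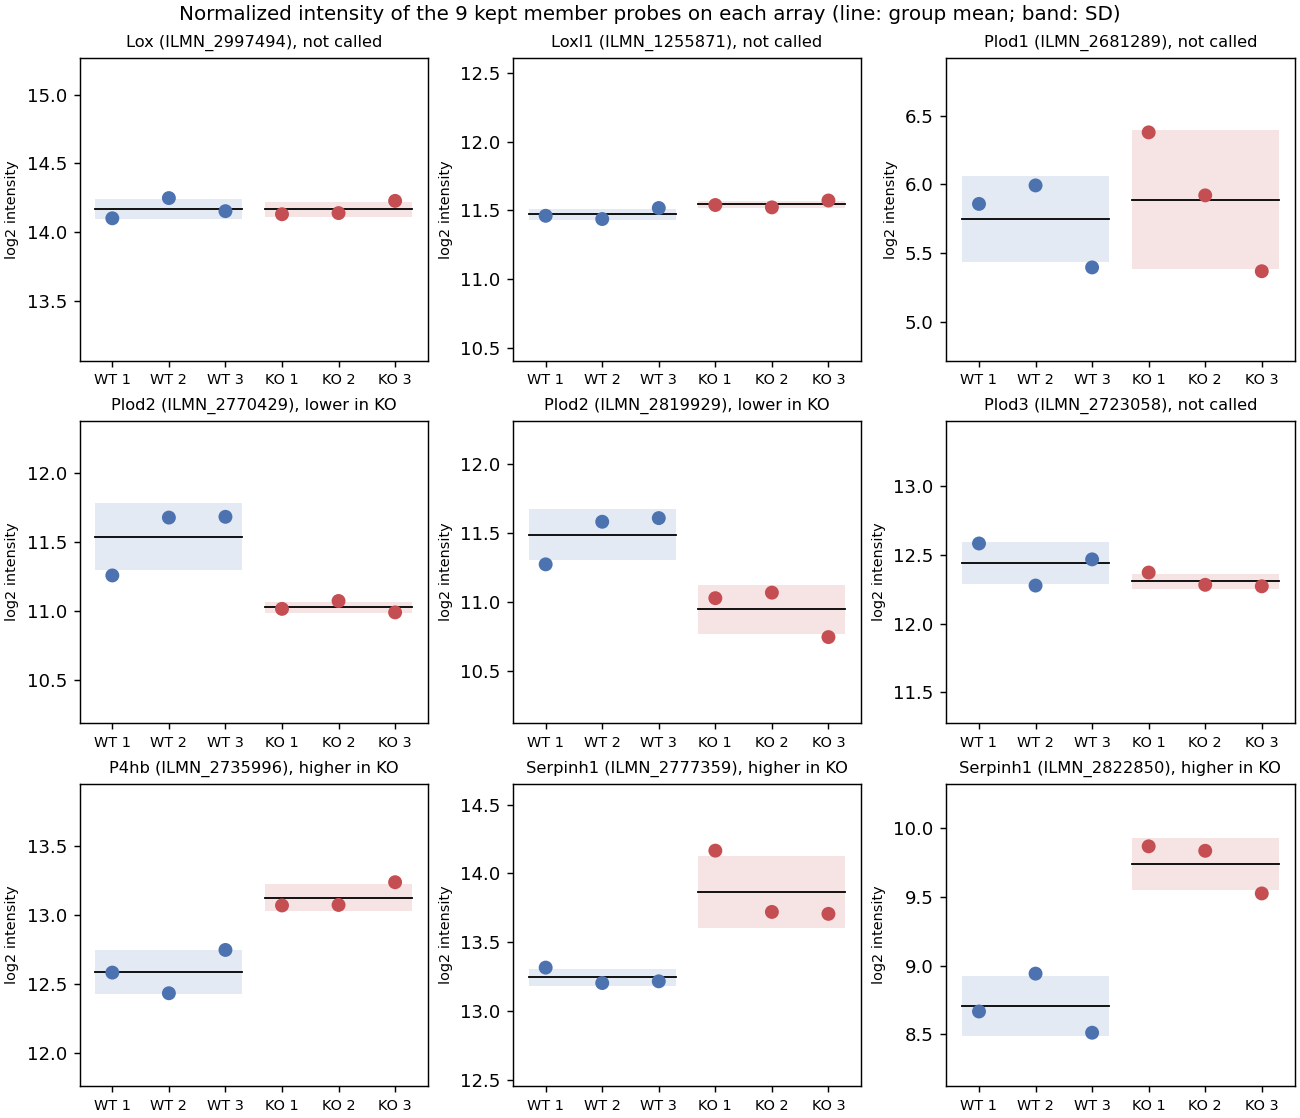
Normalized log2 intensity of the 9 kept probes on each of the 6 arrays, with wild-type (WT) in blue and knockout (KO) in red. Lines mark group means, bands 1 SD (n = 3), and every panel spans the same log2 range. The Serpinh1 and P4hb points lie higher and the Plod2 points lower on all 3 knockout arrays, while the Lox points of both genotypes fall between 14.10 and 14.25.

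Lox, the main lysyl oxidase of the vessel wall, read 14.10, 14.25 and 14.15 in wild-type replicates 1, 2 and 3 and 14.13, 14.14 and 14.23 in knockout replicates 1, 2 and 3. The groups overlapped almost fully, the wild-type mean being 14.17 ± 0.07 and the knockout mean 14.16 ± 0.05 (SD, n = 3 each). The difference was -0.0016 ± 0.12 (SE) on the log2 scale, and its 95% confidence interval reached from 0.83-fold to 1.20-fold (limma adjusted p = 0.994). Its raw intensity was 11283 on the dimmest array and 16920 to 22198 on the others, against array maxima of 40400 to 53081, and whether so bright a probe still responds in proportion to RNA was not tested.

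Loxl1, which is best known for elastin assembly together with fibulin-5, gave 11.46, 11.44 and 11.52 in wild-type and 11.54, 11.52 and 11.57 in knockout cells by its probe ILMN_1255871. The knockout values lay just above the wild-type ones, by less than 0.01 at the closest pair of arrays. The change was 0.07 ± 0.11 (SE), from 0.88-fold to 1.25-fold within the 95% confidence interval, and did not pass (limma adjusted p = 0.670). Loxl1 was 1 of 4 genes among the 7 whose groups did not overlap, with P4hb and Serpinh1 above and Plod2 below wild-type. Of all genes, 23.1% lay above and 24.7% below without overlap.

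A second Loxl1 probe, ILMN_1257592, was detected on 0 of 6 arrays, with detection p-values from 0.11 to 0.624, and so bears on no change. The only Loxl3 probe was likewise detected on 0 of 6 arrays, at 4.63 to 5.13 on the log2 scale with detection p-values from 0.0652 to 0.509. Loxl3, a lysyl oxidase known in mice for palate and spine development, therefore had no measurable level here in either genotype, and its RNA may lie under what this probe can detect. Of the relatives outside the 9 genes, Loxl4 gave 0.31 ± 0.14 (SE) and did not pass (limma adjusted p = 0.141), with detection on all 6 arrays. A second kept Loxl4 probe gave 0.37 without passing, while the mean of both probes was called higher (0.34, limma adjusted p = 0.0445).

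The 3 lysyl hydroxylases gave 3 results. Plod1, the enzyme best known for lysines within the helix and mutated in a human form of Ehlers-Danlos syndrome, was measured by 1 dim probe. It read 5.86, 5.99 and 5.40 in wild-type and 6.38, 5.92 and 5.37 in knockout cells. The groups overlapped, the knockout arrays were spread more widely, with knockout replicate 1 the highest of all, and the confidence interval was the widest among the kept probes of the 9 genes. The change was 0.14 ± 0.26 (SE), with a 95% confidence interval from 0.72-fold to 1.68-fold (limma adjusted p = 0.738), which takes in a rise of the size seen for P4hb.

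Plod2 acts on lysines in the telopeptides, the short ends of the collagen chain, and so sets which kind of crosslink can form. Its probe ILMN_2770429 read 11.26, 11.68 and 11.68 in wild-type and 11.01, 11.07 and 10.99 in knockout cells. All 3 knockout arrays were below all wild-type arrays, and wild-type replicate 1 was the closest to them. Before normalization they were not, as wild-type replicate 2, the dimmest array, had a raw intensity of 1748 against 1853 to 2303 in knockout cells. By this probe Plod2 was 1.43-fold lower, a change of -0.52 ± 0.15 (SE; limma adjusted p = 0.0321).

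The probe ILMN_2819929 read 11.27, 11.58 and 11.61 against 11.03, 11.07 and 10.74 and was 1.46-fold lower (limma adjusted p = 0.0279). All 3 knockout arrays were again the lowest after normalization but not before it. The changes of both Plod2 probes lay within 0.03 of each other on the log2 scale. A further probe, ILMN_2495956, was above the detection limit on 1 wild-type array alone and was not kept. With 1 array left out, the ILMN_2770429 call was kept only when that array was wild-type replicate 1 (change -0.66). Without wild-type replicate 2 or 3 the change was -0.45 in both cases (limma adjusted p = 0.106 and 0.0879), and without knockout replicate 1, 2 or 3 it was -0.51, -0.53 and -0.49 (limma adjusted p = 0.078, 0.076 and 0.0899). The other kept probe held its call in 2 of the 6 cases.

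Plod3, which also adds sugars to hydroxylysine, read 12.58, 12.28 and 12.47 in wild-type and 12.37, 12.28 and 12.27 in knockout cells. Wild-type replicate 2 fell among the knockout arrays. The change was -0.13 ± 0.13 (SE), with a 95% confidence interval from 0.74-fold to 1.12-fold (limma adjusted p = 0.478). A second Plod3 probe was detected on 1 knockout array only and was not kept.

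Whether these relatives changed unequally was tested on the log2 difference between them within each array, over 4 pairs. An exact two-sided permutation test of 3 against 3 arrays cannot go below p = 0.1. The Plod1 to Plod2 difference shifted by 0.66 (exact p = 0.2), that of Plod2 to Plod3 by -0.38 (exact p = 0.3), that of Plod1 to Plod3 by 0.27 (exact p = 0.5) and that of Lox to Loxl1 by -0.07 (exact p = 0.3). The groups overlapped for each of the 4 pairs, and after Benjamini-Hochberg adjustment the values were 0.4 or 0.5. Plod2 passed and its relatives did not, but whether they differ in their change is not decided by these tests.

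P4hb, protein disulfide isomerase, is the beta subunit that keeps the catalytic subunits of prolyl 4-hydroxylase soluble, and it also helps many other proteins to fold. It read 12.58, 12.43 and 12.75 in wild-type and 13.07, 13.07 and 13.24 in knockout cells. The lowest knockout array stood above the highest wild-type array. P4hb was thus 1.46-fold higher, with a 95% confidence interval from 1.18-fold to 1.80-fold (0.54 ± 0.13 (SE); limma adjusted p = 0.0164). Without wild-type replicate 2 the change was 0.46 and without knockout replicate 3 it was 0.48, and neither passed (limma adjusted p = 0.0635 and 0.0605).

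Serpinh1 had the largest changes among the kept probes of the 9 genes, by both of its probes. The brighter one, ILMN_2777359, read 13.32, 13.20 and 13.22 in wild-type and 14.17, 13.72 and 13.71 in knockout cells. The wild-type arrays lay close together, and knockout replicate 1 stood above the other knockout arrays. By this probe Serpinh1 was 1.54-fold higher (0.62 ± 0.15 (SE); limma adjusted p = 0.0177). The dimmer one, ILMN_2822850, read 8.67, 8.94 and 8.51 against 9.87, 9.84 and 9.52 and was 2.05-fold higher, with a 95% confidence interval from 1.59-fold to 2.64-fold (limma adjusted p = 0.00193). Each probe was thus higher on all 3 knockout arrays than on any wild-type array, and the dimmer probe gave the larger change by 0.42 on the log2 scale. The brighter probe had a raw intensity of 5128 on the dimmest array and 11434 to 18298 on the others, reaching the range of Lox. Whether it still responds in proportion to RNA was not tested.

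Leaving out 1 array kept the call of the dimmer Serpinh1 probe in 6 of 6 cases, with changes from 0.94 to 1.16. That of the brighter probe was lost without wild-type replicate 2 (0.59, limma adjusted p = 0.0593). Before normalization the brighter probe did not separate the genotypes, since knockout replicate 3 had a raw intensity of 11782 and wild-type replicate 1 one of 13023. The separation holds relative to each whole array. When arrays were scaled to a common median without quantile normalization, the calls of Plod2, P4hb and the brighter Serpinh1 probe were all lost (limma adjusted p = 0.412, 0.287 and 0.198), while the dimmer Serpinh1 probe kept its call. With every probe on the array tested, dim ones included, Plod2 was at a limma adjusted p of 0.0644.

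**Figure D2:**
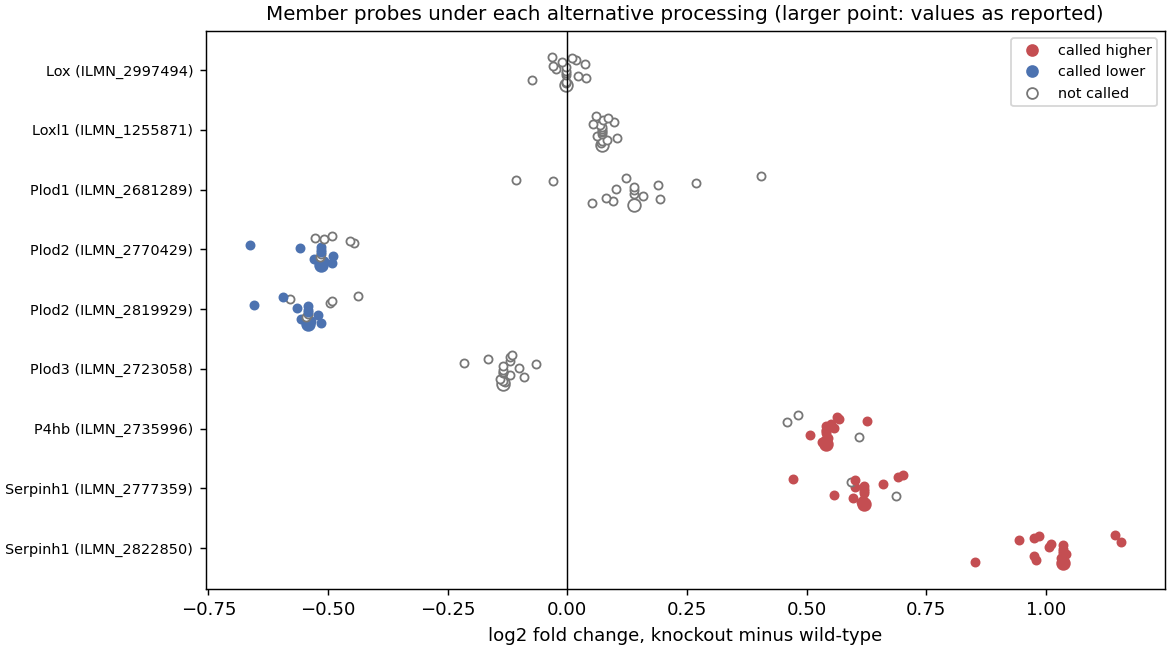
Log2 fold change, knockout minus wild-type, of the 9 kept probes under the normalization used here (larger points) and under the alternative settings, filled where called and open where not. The dimmer Serpinh1 probe is filled throughout and spans 0.85 to 1.16, the Plod2 probes lose their call under several settings, and the Lox points lie within -0.07 to 0.04.

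Serpinh1 and P4hb were the genes of the 9 that rose, and the stretches upstream of their starts are shown for that reason. The 250 bases before each start are from RefSeq, build GRCm38.p6, and are printed on the strand of the gene. Capitals mark CCACG and CCAAT, the ends of the endoplasmic reticulum stress element, to which ATF6 and NF-Y bind. The Serpinh1 window is chr7:99353240-99353489 and the P4hb window chr11:120573254-120573503, both on the minus strand.
Serpinh1: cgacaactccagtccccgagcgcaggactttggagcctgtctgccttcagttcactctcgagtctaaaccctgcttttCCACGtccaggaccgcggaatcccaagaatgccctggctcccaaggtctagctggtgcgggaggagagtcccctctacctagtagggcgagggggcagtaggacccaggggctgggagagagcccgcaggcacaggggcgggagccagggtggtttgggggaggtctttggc
P4hb: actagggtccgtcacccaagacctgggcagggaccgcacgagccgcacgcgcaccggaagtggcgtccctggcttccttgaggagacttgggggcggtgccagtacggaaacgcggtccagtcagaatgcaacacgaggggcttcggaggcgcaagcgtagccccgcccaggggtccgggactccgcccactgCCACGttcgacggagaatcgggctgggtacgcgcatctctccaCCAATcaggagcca

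Counted from the start, the CCACG begins at -172 in Serpinh1 and at -57 in P4hb. P4hb also holds 1 CCAAT, which begins at -14, downstream of the CCACG. The complete element (CCAAT, 9 bases of any kind, then CCACG) was in 0 of the 4 windows available for the 9 genes (Plod1, Plod3, P4hb and Serpinh1) and in 0.113% of the 32851 mouse windows of this length. Read on both strands, CCACG was in 2 of the 4 windows and in 28.3% of all windows. CCAAT was in 2 of the 4 and in 33.8%, and its other window was that of Plod3, which was not called. In Serpinh1 and P4hb the CCACG overlaps ACGTG, the core of the hypoxia response element, on the opposite strand. ACGTG was in 3 of the 4 windows, that of Plod3 included, and in 16.6% of all windows. The GC box GGGCGG was in 3 of 4 and in 32.7%, and the heat shock motif GAANNTTC in 0 of 4 and in 6.69%. These are matches of letters only, and Lox, Loxl1, Loxl3 and Plod2 had no window to search.

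Further genes of collagen and elastin assembly were read from 10 lists, which together name 63 genes. Of these, 47 had a kept probe, 17 were higher and 6 lower in knockout cells, with a median change of 0.31 on the log2 scale against -0.0064 for all genes. Among all genes with a kept probe, 14.8% were higher and 16.5% lower, and the counts of each list below stand against these shares. The lists were chosen with earlier results of these data known, so their counts are no test of the pathway. Prolyl hydroxylation, the step that P4hb serves, had 3 of 9 genes higher and 1 lower. The catalytic subunits P4ha1 and P4ha2 rose 2.87-fold and 1.75-fold (limma adjusted p = 0.000118 and 0.00223), each by both of its kept probes. P3h2, a prolyl 3-hydroxylase most known for basement membrane collagen, rose 1.90-fold (limma adjusted p = 0.00237). Its probe was dim in wild-type cells, at 5.67, 5.34 and 5.80 with detection p-values up to 0.0481. The change of 0.93 on the log2 scale was as low as 0.32 among the alternative settings. Crtap, the partner protein of prolyl 3-hydroxylase 1, was 1.47-fold lower (limma adjusted p = 0.0111).

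Of 9 kept genes for folding in the endoplasmic reticulum, 4 were higher and 0 lower. Calr (calreticulin) rose 1.75-fold, Hspa5 (BiP) 1.79-fold and Hsp90b1 (GRP94) 1.33-fold, with limma adjusted p-values of 0.0028, 0.0119 and 0.0437. The Hspa5 probe was dim in wild-type cells, at 5.68, 5.95 and 5.54 with detection p-values up to 0.0118. Its change of 0.84 was 0.31 without background correction, where it was still called (limma adjusted p = 0.0105). The Hsp90b1 call was lost under 11 of 18 alternative settings. The isomerase Pdia6 rose 2.16-fold by its brightest probe (limma adjusted p = 0.000219), while another of its probes gave -0.07 without passing. For sugar transfer to hydroxylysine and its helper proteins, 1 of 2 kept genes was higher, the galactosyltransferase Colgalt1 at 1.33-fold (limma adjusted p = 0.0334), a call lost under 9 of 18 alternatives. Its list partner Tmem38b, an ion channel of the endoplasmic reticulum needed for lysyl hydroxylation in human bone, gave 0.07 without passing.

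Among 6 kept genes of procollagen export, 1 was higher, the coat protein gene Sec24d at 1.61-fold (limma adjusted p = 0.0427). That call was lost under 10 of 18 alternatives, with 0.0615 in the authors' matrix. Sar1b gave 0.29, Klhl12 -0.41 and Creb3l1 -0.27 without passing, the latter pair detected on 1 of 3 knockout arrays each. Of 3 kept genes for removal of the propeptides, 1 was higher. Bmp1, the procollagen C-proteinase that also activates Lox, rose 1.49-fold by its brightest probe (limma adjusted p = 0.00574). Of its further kept probes, 2 rose as well, by 0.72 and 0.87 on the log2 scale (limma adjusted p = 0.0074 and 0.00355), and 1 gave -0.05 without passing. Its enhancers Pcolce and Pcolce2 gave -0.30 and -0.42 without passing by their brightest probes, while another Pcolce2 probe was lower, by -0.90 (limma adjusted p = 0.0013).

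**Figure D3:**
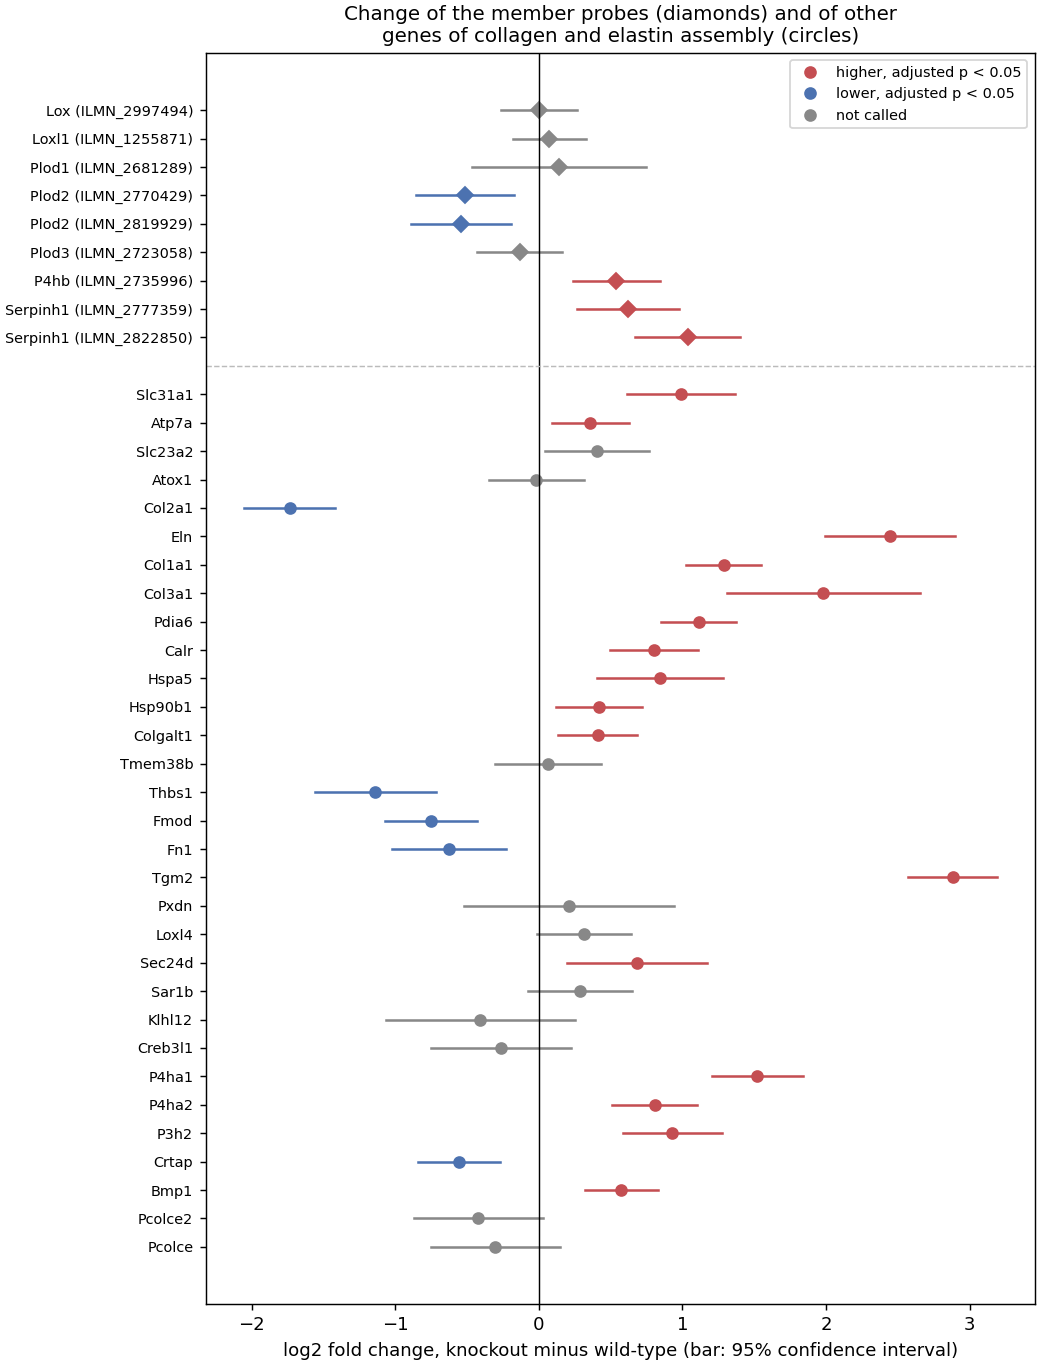
Log2 fold change, knockout minus wild-type, with 95% confidence intervals for the 9 kept probes (diamonds) and for other named genes of collagen and elastin assembly by their brightest kept probe (circles). Red is called higher, blue called lower and grey not called. Lox and Loxl1 sit at -0.0016 and 0.07, Serpinh1 and P4hb at 0.54 to 1.04, and Eln and Tgm2 beyond 2 on the right.

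Larger changes were measured for the RNA of some proteins on which lysyl oxidases act. Of 8 such genes, 4 were higher, 2 lower and 2 not called, and the 4 with the smallest p are named here. Elastin (Eln) read 8.90, 8.16 and 8.52 in wild-type and 11.15, 10.80 and 10.97 in knockout cells, and rose 5.45-fold by this brightest probe (limma adjusted p = 6.3e-05), while its other kept probe gave a rise of 0.74 on the log2 scale (limma adjusted p = 0.014). The fibrillar collagen genes Col3a1 and Col1a1 rose 3.95-fold and 2.44-fold (limma adjusted p = 0.00152 and 9.93e-05), and the cartilage collagen Col2a1 was 3.33-fold lower (limma adjusted p = 6.06e-05). Col2a1 also belongs to the chondrocyte markers above. The Eln and Col1a1 arrays of the genotypes were fully apart, where those of Lox overlapped.

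Tissue transglutaminase (Tgm2), which forms crosslinks of another kind between glutamine and lysine, read 8.86, 8.77 and 8.72 in wild-type and 11.87, 11.60 and 11.53 in knockout cells. It was 7.37-fold higher (limma adjusted p = 4.44e-06). The peroxidase Pxdn, which links collagen IV, was above the detection limit on 2 of 3 wild-type and 1 of 3 knockout arrays and gave 0.21 without passing. Of 6 listed matrix partners of lysyl oxidases, 3 were kept, and all 3 were lower. Among those not kept, Fbln5 was detected on no array, while Postn was detected in knockout cells but on no wild-type array. The thrombospondin gene Thbs1 was 2.20-fold, fibromodulin (Fmod) 1.68-fold and fibronectin (Fn1) 1.54-fold lower (limma adjusted p = 0.00236, 0.00473 and 0.027). A second Fmod probe and 2 of the 3 further Fn1 probes did not pass, and the Fn1 call was lost under 7 of 18 alternatives.

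Copper and ascorbate supply is needed by lysyl oxidases and by the hydroxylases, respectively. Of 4 kept genes, 2 were higher, the copper importer Slc31a1 at 1.99-fold and the copper pump Atp7a at 1.28-fold (limma adjusted p = 0.00274 and 0.0487). The Atp7a call was lost under 14 of 18 alternative settings. The ascorbate transporter Slc23a2 gave 0.41 and the copper chaperone Atox1 -0.017 without passing.

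The enzymes were also set against a substrate or partner on the same array. These pairs were picked with their values known and carry no test. The log2 difference of Lox to Eln, relative to its wild-type mean, was -0.44, 0.45 and -0.0082 in wild-type and -2.65, -2.30 and -2.38 in knockout cells. The shift of -2.45 was -0.74 by the other kept Eln probe, again without overlap. That of Lox to Col1a1 was -0.06, 0.01 and 0.05 in wild-type and -1.29, -1.37 and -1.22 in knockout cells. Lox RNA was thus lower relative to both of these substrates on all 3 knockout arrays, while the genotypes overlapped in its own level. Both were substrates that rose, and Lox was set against none that fell. Col2a1, brighter in wild-type cells (mean 13.17 against 9.90 for Col1a1 and 8.53 for Eln), changed by -1.74. The summed normalized intensity of the 8 substrate genes was 16407 to 17098 in wild-type and 13464 to 14830 in knockout cells. The Plod2 to Col1a1 difference shifted by -1.80 and the Serpinh1 to Col1a1 difference by -0.67. By the dimmer Serpinh1 probe the latter shift was -0.25, and the genotypes overlapped. Between the subunits of prolyl 4-hydroxylase, P4hb to P4ha1, the shift was -0.98. Plod2 against Serpinh1 shifted by -1.13, and by the brightest probes the genotypes did not overlap for any of these pairs.

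**Figure D4:**
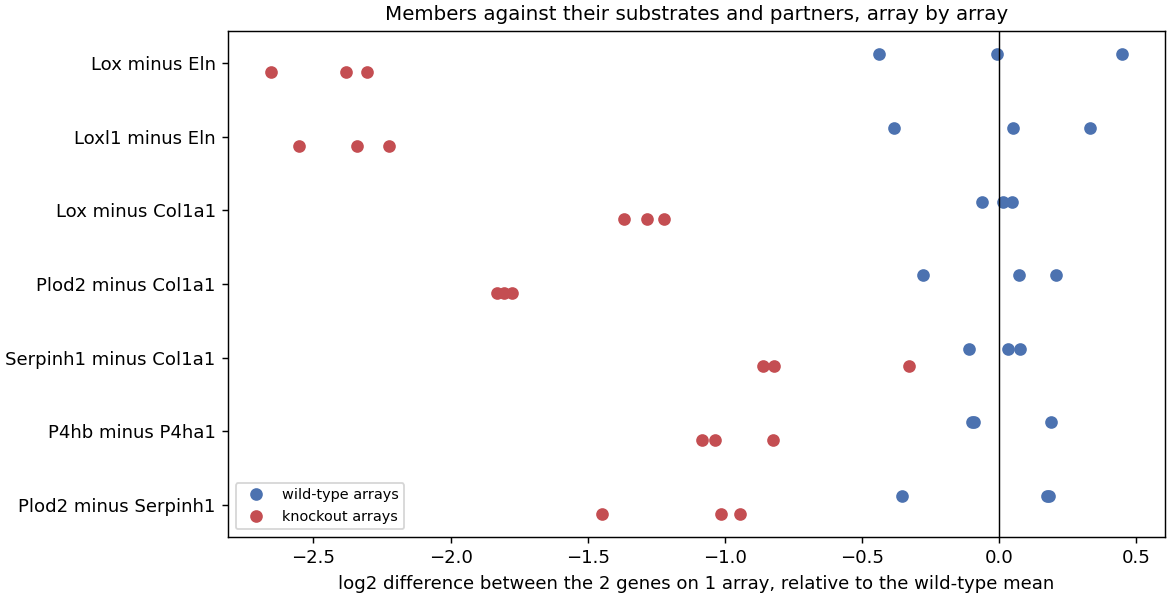
Log2 difference between the brightest kept probes of 2 genes on the same array, relative to the mean of the wild-type arrays, for 7 pairs of an enzyme with a substrate or partner. Blue points are the 3 wild-type and red points the 3 knockout arrays, and in each pair all red points lie to the left of all blue points, between -2.65 and -0.33.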

How the data were processed

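RNA of 6 cultures was measured on 1-colour Illumina beadchips, with groups and replicate numbers taken from the sample labels. In the deposited table there is 1 bead intensity per probe and array without background subtraction or scaling, as its values show, and a detection p-value beside it per the file headers. A deposited matrix of log2 values, normalized between arrays by the authors in a way not given in the sources used here, served as an alternative. GenomeStudio 2011.1, R 2.14.0 and limma 3.10.2 are listed in the submitters' processing notes. No scan date or slide was given in the sources used here.

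Intensities were normalized here in R 4.3.3 with limma 3.58.1 (neqc procedure: normexp background from the detection p-values, offset 16, quantile normalization, log2). Probes with detection p under 0.05 on at least 3 of 6 arrays entered limma's lmFit and eBayes as knockout minus wild-type with no block, and p-values were adjusted over the 15527 kept probes (Benjamini-Hochberg). Adjusted p-values are from this fit unless an alternative is named with them. Those under an alternative are from the refit with it, and those of the 4 gene pairs are from the permutation tests. Errors of changes are moderated standard errors, and the 3 arrays per group limit the precision. The offset and quantile steps shrink changes of dim probes and assume like distributions. Symbols came from the platform annotation, updated through a RefSeq gene table (34885 probes with 1 symbol, 18 with several, 10378 with none). A gene is represented by its brightest kept probe. Named genes are the 9 chosen genes with every probe, Fhl2, and from each of the 10 lists up to 4 kept genes with the smallest p. The genes, lists and marker sets were chosen with earlier results of these data known. The fit was tested on simulated data. Alternatives covered background correction, offset, normalization, source of values, filter, variance trend, weights per array, a block for the replicate number, omission of each array, averaging of probes and a fold threshold of 1.5.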

Additional observations from a re-analysis of the deposited data

How the results depend on the processing

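Scaling each array to a common median in place of quantile normalization left 685 higher and 1082 lower probes, and 0 higher and 0 lower of the 7 genes, although the changes of Plod2, P4hb and Serpinh1 were then -0.52, 0.61 and 0.69. The cause was not tested. Fitting all probes without the filter, and so adjusting over more of them, gave 0 lower genes of the 7, and a fold threshold of 1.5 gave 1 higher and 0 lower. With 1 array left out, which leaves fewer samples, 0 to 2 of the 7 genes were higher and 0 to 1 lower. Plod2, P4hb and Serpinh1 kept their direction under every alternative, with changes of -0.66 to -0.45, 0.46 to 0.63 and 0.47 to 0.83. Changes close to 0 turned sign without passing. Lox gave 0.0387 under median scaling, 0.0221 in the authors' matrix and -0.0318 to 0.0362 with 1 array left out, and Plod1 gave -0.11 to 0.41 with 1 array left out. Atox1 gave 0.017 under median scaling and -0.10 to 0.0765 with 1 array left out, Tmem38b -0.0082 and -0.0757 to 0.18, and Pxdn -0.10 to 0.40 with 1 array left out. Replicate numbers are not said to pair cultures, so the numbers were not taken as pairs. Same-numbered replicates of the genotypes did deviate together weakly, with correlations of 0.118, 0.073 and 0.064 across probes. Each was the highest for its wild-type array, and those with other numbers ran from -0.074 to 0.0086. With the replicate number as a block, 2147 probes were higher and 2258 lower, and the same 2 higher genes and 1 lower gene of the 7 were called. Some genes not called became called. Pcolce2 was lower without background correction (-0.31), with a variance trend (-0.42) and by the mean of its probes (-0.66), Pcolce was lower without wild-type replicate 1 (-0.52) and Klhl12 without knockout replicate 3 (-0.74). Dim signal limits what can be said of Plod1 and Loxl3, and of the size of the changes of Hspa5 and P3h2.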
